A study of Mus musculus with 64 samples.

Results

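Loss of Dnmt3l was examined in whole testis of mice at P10.5, the age in days after birth, as polyA RNA-seq of 9 libraries out of the 64 samples of the series. Members were chosen by genotype label alone: the 3 Dnmt3l-/- libraries formed 1 arm, and the 3 Dnmt3l+/+ and 3 Dnmt3l+/- libraries together formed the control arm. Each library came from 1 mouse, and nothing in the labels restricts the deletion to germ cells, so it is taken as present in all cells of the testis. Strain and litter of the Dnmt3l line are not given in the sources used here. Whole testis of the Morc1 line at the same age served as a comparison, with 3 Morc1tg/tg libraries, homozygous for a transgene insertion in Morc1, against 1 Morc1+/+ and 2 Morc1tg/+ libraries. A further 1 Morc1+/+ and 1 Morc1tg/+ testis library of this age, labelled preliminary, were not used. Per the study, the Morc1 line was kept on the FVB/N background by brother-sister mating, with Morc1tg/+ littermates as controls. To order genes, sorted germ cells of Morc1tg/+ mice at P10.5 (4 libraries) and whole testis of Morc1tg/+ mice at P14.5 (3 libraries) were also used. The labels name no Dnmt3l allele in the Morc1 line, and no library was shared between the lines.

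DNMT3L is a relative of the DNA methyltransferases that has no catalytic activity of its own. It binds DNMT3A and guides new DNA methylation in prospermatogonia, the male germ cells that stop dividing before birth, and mice without it lose methylation at retrotransposons and fail to complete meiosis. At P10.5 the seminiferous tubules hold Sertoli cells, spermatogonia at several steps of differentiation and the first cells to enter meiotic prophase, surrounded by peritubular, Leydig, endothelial and immune cells.

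The targeted gene was checked first. Dnmt3l (ENSMUSG00000000730, chr10:77504692-77526367 on the plus strand of NCBIM37, the mm9 assembly) was at 0.0402, 0.037 and 0.0464 RPKM (reads scaled to gene length and library depth, a scale that allows levels of different genes to be compared) in the 3 Dnmt3l-/- testes. It was at 0.721, 0.807 and 1.02 RPKM in Dnmt3l+/+ and at 0.569, 0.582 and 0.374 RPKM in Dnmt3l+/-. All 3 Dnmt3l-/- libraries lay below all 6 controls, and the log2 fold change was -3.93 ± 0.40 (SE, n = 3 and 6, edgeR adjusted p = 1.02e-05). Every Dnmt3l+/- value lay below every Dnmt3l+/+ value.

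Reads on genes numbered 36431768 to 42137954 per Dnmt3l-/- library and 28500020 to 39321449 per control library. The first principal component of log expression held 64.2% of the variance and separated Dnmt3l-/- (38.5 to 57.7) from the controls (-34.7 to -12.6). No pair of libraries agreed within counting noise. The summed level of a list of epididymis genes stood apart in 4 control libraries, mainly through 1 member, Crisp1. All 10 genes of the list had reads in at least 1 library. Their sum was 37.9, 7.42 and 11.8 RPKM in the Dnmt3l+/+ libraries and 2.44, 27 and 2.08 in the Dnmt3l+/- libraries. In Dnmt3l-/- it was 2.52 to 4.11. Of the 3 members tested, 2 were called lower, Crisp1 and Adam7. Adam7 had a mean of 0.0962 RPKM in controls and 0.0064 in Dnmt3l-/-. Without Crisp1, the other 9 members summed to 2.77 to 3.67 RPKM in those 4 libraries (all Dnmt3l+/+ and Dnmt3l+/- replicate 2), 2.06 to 2.4 in the other 2 controls and 2.49 to 4.11 in Dnmt3l-/-. The 4 are called the high-Crisp1 controls below, and values without them, which leave 2 controls, are given where a call of a gene described here was lost.

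Across the genome the Dnmt3l-/- testis differed widely from the controls, with most members of the differentiating, general germ cell and early meiosis lists lower and most Sertoli cell and stromal genes higher. Of 26385 genes listed, 15665 had enough reads to test, and 8439 (53.9%) passed an adjusted p of 0.05 in edgeR's quasi-likelihood test, 3900 higher (24.9%) and 4539 lower (29.0%) in Dnmt3l-/-. In 6621 of the 8439 the 3 Dnmt3l-/- values did not overlap the 6 control values, and over all genes tested, called or not, 44.6% showed no overlap. Most changes were small: the median log2 fold change was 0.429 among the genes that rose, -0.549 among those that fell and -0.000919 over all genes tested. Large changes were mostly falls, since 233 genes rose and 1179 fell by more than 1 on the log2 scale, and 35 rose and 273 fell by more than 2. Without the 4 high-Crisp1 controls, which left 2 controls, 2292 genes were higher and 3056 lower. In bulk RNA, fewer cells of a type and less RNA per cell cannot be told apart, and this holds for every gene group that follows. Counts of list members below are to be read beside the shares over all genes, 24.9% higher and 29.0% lower.

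**Figure D1:**
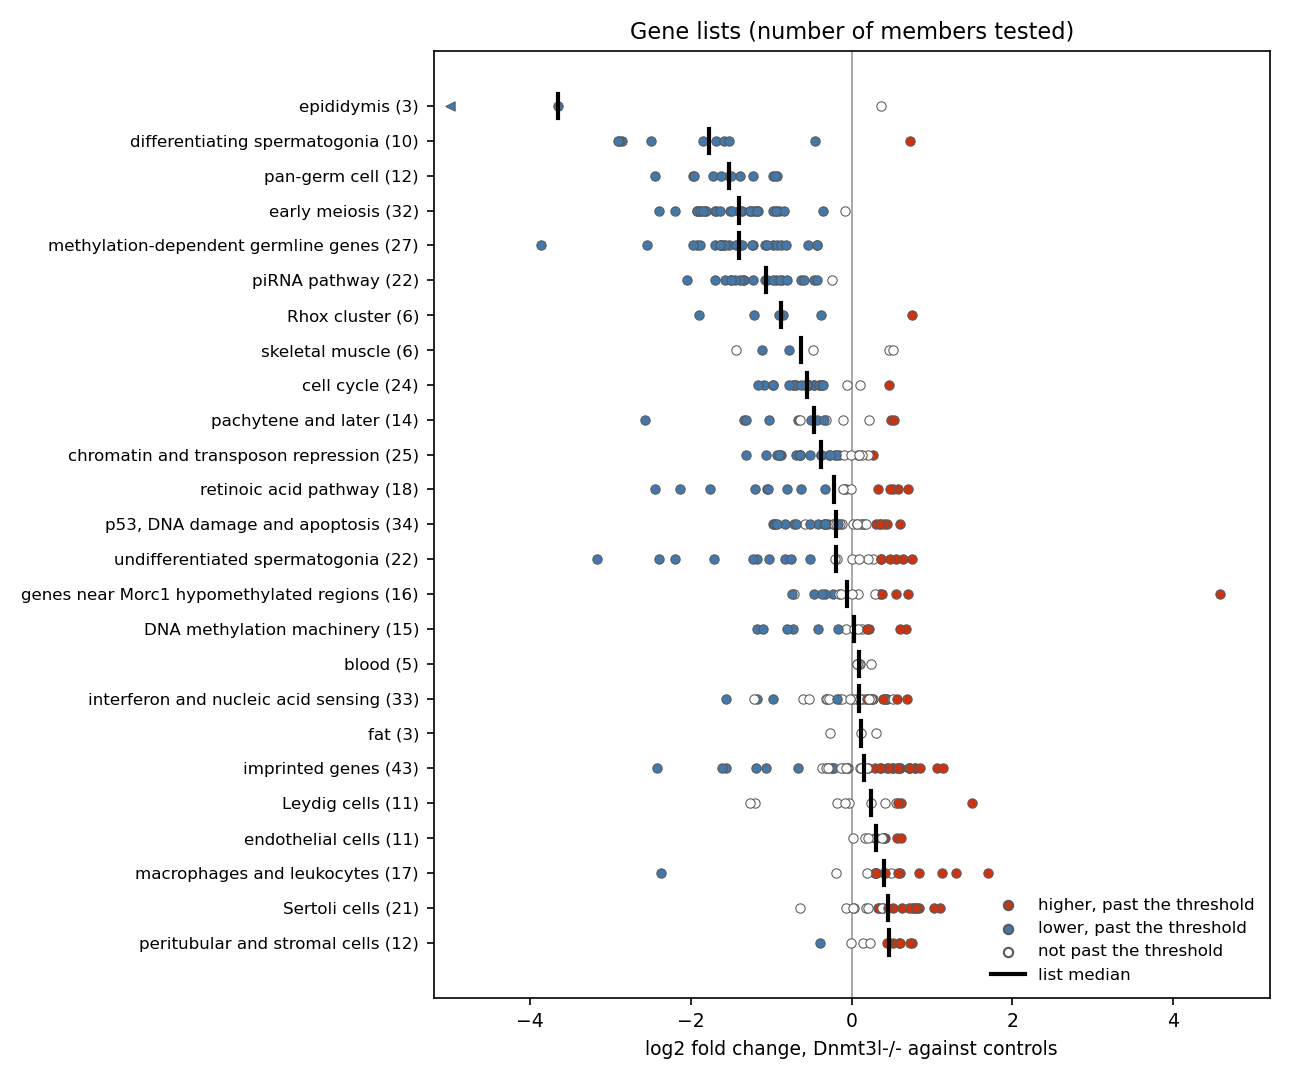
Each point is the log2 fold change of 1 gene, Dnmt3l-/- against the 6 controls, grouped by gene list with the number of members tested in brackets; red points rose, blue points fell, open points did not pass the test, and the black bar is the list median. The differentiating spermatogonia, pan-germ cell, early meiosis and piRNA lists lie to the left of 0, with medians of -1.77 to -1.06, and the Sertoli cell and stromal lists to the right; Crisp1, at -9.82, is drawn as a triangle at the left edge.

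Genes of undifferentiated spermatogonia moved in both directions. Of the 22 genes of a list of undifferentiated spermatogonia, 5 rose, 10 fell and 7 did not pass the test (median log2 fold change -0.19), so that the share of risers was no higher than over all genes tested (24.9%). Without the 4 high-Crisp1 controls 3 rose and 10 fell. The risers were Gfra1, Id4, Etv5, Lhx1 and Gpr125, of which Gpr125 was lower in germ cells sorted from the Morc1 line than in whole testis (log2 ratio -3.14) and the other 4 were higher (0.549 to 1.93). Gfra1, the receptor through which germline stem cells sense GDNF, was at 6.78, 8.59 and 7.26 RPKM in Dnmt3l-/- and at 4.55 to 5.97 RPKM in controls (median 5.36, log2 fold change 0.55 ± 0.11 SE, edgeR adjusted p = 0.000945). Id4, an inhibitor of basic helix-loop-helix factors that marks stem cells, was at 5.79, 6.25 and 6.1 RPKM in Dnmt3l-/- and at 3.35 to 4.22 RPKM in controls (median 3.65, log2 fold change 0.75 ± 0.09, adjusted p = 4.09e-05). Neither gene's Dnmt3l-/- values overlapped the controls. Etv5, a transcription factor downstream of GDNF, was at 19.5, 18.9 and 15.4 RPKM against 9.82 to 15.4 RPKM (median 11.1), so that the lowest Dnmt3l-/- library met the highest control. Its log2 fold change was 0.64 ± 0.13 (edgeR adjusted p = 0.00154), and without the 4 high-Crisp1 controls it was 0.55 with an adjusted p of 0.0646. Ret, the co-receptor of GFRA1, and Nanos2, an RNA-binding protein that maintains stem cells, gave 0.21 ± 0.10 (adjusted p = 0.103) and 0.26 ± 0.18 (adjusted p = 0.237), and Ret passed with upper-quartile factors (0.27, adjusted p = 0.0456), without Dnmt3l+/- replicate 3 (0.29, adjusted p = 0.0138) and without Dnmt3l-/- replicate 1 (0.29, adjusted p = 0.0495).

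Of the 10 members that fell, 5 are described here. Sox3, an X-linked transcription factor of progenitors that are committed to differentiate, was at 2.82, 2.73 and 4.26 RPKM in Dnmt3l-/- and at 16.7 to 19.6 RPKM in controls, median 17.9. All 3 mutant values were far below the controls, which lay close together (log2 fold change -2.40 ± 0.13 SE, edgeR adjusted p = 1.29e-07). Neurog3, a factor switched on as cells leave the stem state, was at 0.236, 0.378 and 0.614 RPKM against 2.84 to 4.89 RPKM, median 3.92 (log2 fold change -3.17 ± 0.28, adjusted p = 2.81e-06). Neurog3 lies inside 2010107G23Rik, transcribed from the other strand, which also fell (-1.28 ± 0.12, adjusted p = 3.75e-06), and the library kit does not mark strand, so reads of the pair cannot be told apart where they overlap. Zbtb16 (PLZF), a zinc finger repressor needed for self-renewal, was at 7.01, 6.64 and 9.18 RPKM against 16 to 19.21 RPKM, median 18.1 (log2 fold change -1.18 ± 0.10, adjusted p = 3.06e-06). Lin28a, an RNA-binding regulator of let-7, fell by 1.23 ± 0.10 on the log2 scale (adjusted p = 1.3e-06), and Sall4, a zinc finger factor of spermatogonia, fell by 1.71 ± 0.08 (adjusted p = 6.41e-08). For both genes the 3 Dnmt3l-/- libraries lay below the 6 controls.

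Genes of differentiating spermatogonia were lower still. In a list of 10 tested members, 9 fell and 1 rose (median log2 fold change -1.77), and the summed RPKM of the list was 319 to 360 in Dnmt3l-/- against 664 to 793 in controls. Kit, the receptor that marks differentiating spermatogonia, was at 7.19, 5.23 and 9.04 RPKM in Dnmt3l-/- and at 22.8 to 31.8 RPKM in controls, median 25.1 (log2 fold change -1.85 ± 0.17 SE, edgeR adjusted p = 3.48e-06). Stra8, induced by retinoic acid and needed to enter meiosis, was at 7.12, 7.58 and 12.4 RPKM against 43 to 63 RPKM, median 51.7 (log2 fold change -2.49 ± 0.19, adjusted p = 9.78e-07). Groups did not overlap for either gene. Dmrtb1, which coordinates the passage from mitosis to meiosis, fell by 2.86 ± 0.19 on the log2 scale (adjusted p = 3.83e-07), and Sohlh1, a basic helix-loop-helix factor of differentiation, fell by 1.69 ± 0.09 (adjusted p = 1.28e-07). Dmrt1, which is also made by Sertoli cells, fell by 0.45 ± 0.06 (adjusted p = 0.000102). The riser of the list was Ccnd2, a D-type cyclin, at 70.6, 96.4 and 67.4 RPKM against 42.6 to 53.2 RPKM, median 49.6 (log2 fold change 0.72 ± 0.10, adjusted p = 0.000115), and its level in sorted germ cells was also below that in testis (log2 ratio -1.11).

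**Figure D2:**
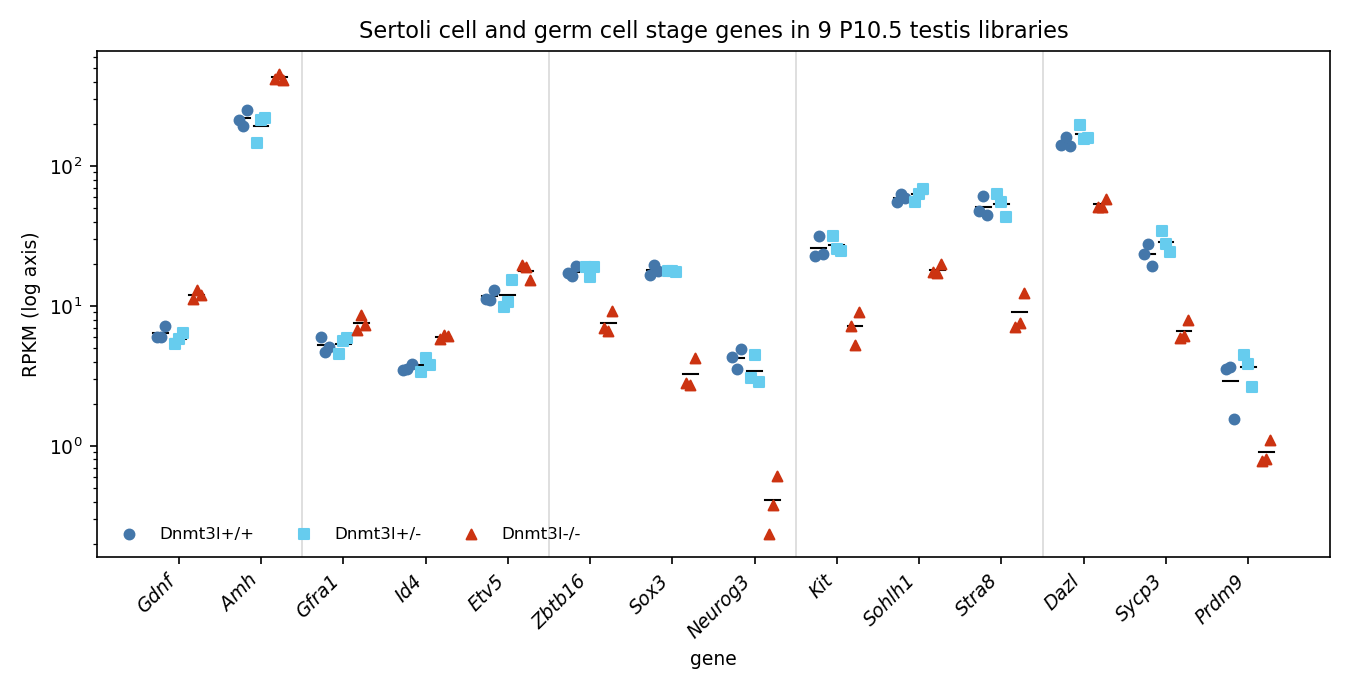
RPKM on a log axis of 14 genes in each of the 9 libraries (circles, Dnmt3l+/+; squares, Dnmt3l+/-; triangles, Dnmt3l-/-; bars, means of 3 libraries), ordered from Sertoli cell genes through undifferentiated and differentiating spermatogonia to general germ cell and meiotic genes. The triangles lie above the controls for Gdnf, Amh, Gfra1 and Id4, meet them for Etv5, and lie below all 6 controls from Zbtb16 onwards.

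Meiotic genes followed the same course, with 31 of 32 tested members of an early meiosis list lower and none higher (median log2 fold change -1.40). Sycp3, a component of the axis of meiotic chromosomes, was at 5.94, 6.1 and 8 RPKM in Dnmt3l-/- and at 19.4 to 34.6 RPKM in controls, median 26 (log2 fold change -1.93 ± 0.17 SE, edgeR adjusted p = 2.66e-06). Prdm9, the histone methyltransferase that places recombination sites, was at 0.779, 0.809 and 1.11 RPKM against 1.57 to 4.46 RPKM, median 3.6 (log2 fold change -1.82 ± 0.28, adjusted p = 0.000193). The lowest control for Prdm9 was Dnmt3l+/+ replicate 3, still above the mutants. Spo11, which cuts DNA to start recombination, fell by 1.69 ± 0.29 (adjusted p = 0.000394) and Dmc1, the meiotic strand exchange protein, by 1.41 ± 0.18 (adjusted p = 5.79e-05). The member that did not pass was Mnd1, a partner of DMC1 (-0.08 ± 0.13, adjusted p = 0.627). Of 24 genes of pachytene and later stages, only 14 had enough reads to test at this age. Of the 14, 8 fell and 2 rose (median -0.47), beside 29.0% and 24.9% of all genes. Mybl1, a transcription factor of pachytene spermatocytes, was 1 of the risers (0.49 ± 0.12, adjusted p = 0.00369), a call lost without the 4 high-Crisp1 controls (0.53, adjusted p = 0.0568). Mybl1 and the other riser, Meig1, were lower in germ cells sorted from the Morc1 line than in whole testis (log2 ratios -0.87 and -2.03). Piwil1, a late piRNA-binding protein, fell by 1.34 ± 0.13 (adjusted p = 5.79e-06).

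Genes of a general germ cell list fell without exception among the 12 members tested (median log2 fold change -1.52). The list also holds genes that are not equally present at all stages, such as Crabp1. The summed RPKM of the list was 205 to 254 in Dnmt3l-/- against 595 to 769 in controls, 0.339 times the control mean. Dazl, an RNA-binding protein of germ cells, was at 50.6, 51 and 58.2 RPKM in Dnmt3l-/- and at 139 to 196 RPKM in controls, median 158 (log2 fold change -1.53 ± 0.10 SE, edgeR adjusted p = 5.31e-07). Ddx4 (VASA), the germ cell RNA helicase, was at 31.5, 34 and 37.7 RPKM against 64.2 to 82 RPKM, median 68.6 (log2 fold change -0.99 ± 0.08, adjusted p = 1.86e-06). Neither gene overlapped between groups. The falls in the list ranged from 0.92 (Stk31) to 2.44 on the log2 scale, the latter in Crabp1, a retinoic acid binding protein of spermatogonia (12.7, 11.9 and 17.8 RPKM against 69.3 to 93.6).

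Sertoli cell genes moved the other way, less far. Of 21 Sertoli cell genes tested, 14 rose and none fell (median log2 fold change 0.45), and their summed RPKM was 7420 to 7990 in Dnmt3l-/- against 4740 to 6120 in controls, 1.39 times the control mean. Amh, the hormone made by immature Sertoli cells, was at 422, 457 and 412 RPKM in Dnmt3l-/- and at 147 to 252 RPKM in controls, median 215 (log2 fold change 1.10 ± 0.12 SE, edgeR adjusted p = 1.78e-05). Gdnf, the Sertoli cell factor that keeps germline stem cells dividing, was at 11.2, 13 and 11.9 RPKM against 5.35 to 7.23 RPKM, median 5.98 (log2 fold change 1.02 ± 0.09, adjusted p = 2.57e-06). Kitl, the ligand of KIT, was at 81.6, 85.6 and 82.3 RPKM against 52.9 to 68.6 RPKM, median 59.9 (log2 fold change 0.52 ± 0.08, adjusted p = 0.000218). None of these values overlapped the controls, and Dhh (0.84 ± 0.07, adjusted p = 1.72e-06) and Inha (0.81 ± 0.09, adjusted p = 1.66e-05), a signal to Leydig cells and an inhibin subunit, rose as well. Sox9, the transcription factor that defines Sertoli cells, gave 0.18 ± 0.08 (adjusted p = 0.0811) and passed the test in 6 settings: with upper-quartile factors (0.24, adjusted p = 0.0252), RLE factors (0.20, adjusted p = 0.0443), DESeq2 (0.20, adjusted p = 0.0354) or Dnmt3l+/- controls only (0.27, adjusted p = 0.0365), and without Dnmt3l+/+ replicate 1 (0.21, adjusted p = 0.0399) or the 4 high-Crisp1 controls (0.32, adjusted p = 0.0412). All these values are relative to the total of each library.

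Among 11 Leydig cell genes, 3 rose, none fell and 8 did not pass (median log2 fold change 0.24), a share of risers close to that over all genes. Hsd17b3, the last enzyme of testosterone synthesis, was at 104, 138 and 81.4 RPKM in Dnmt3l-/- and at 28.4 to 48.5 RPKM in controls, median 41.6 (log2 fold change 1.49 ± 0.18 SE, edgeR adjusted p = 2.69e-05). Cyp17a1, an earlier enzyme of the same path, was at 20.9, 13.2 and 24.6 RPKM against 6.49 to 75.5 RPKM, median 52.9 (-1.20 ± 0.56, adjusted p = 0.0888). The controls for Cyp17a1 spread on both sides of the mutants, and without Dnmt3l+/- replicate 3 it passed the test at -1.41 (adjusted p = 0.00331), as it did with Dnmt3l+/+ controls only (-1.52, adjusted p = 0.00022). Of 12 peritubular and stromal genes, 8 rose and 1 fell (median 0.46), among them Pdgfra, a stromal growth factor receptor (0.75 ± 0.11, adjusted p = 0.000142), and Dcn, a matrix proteoglycan (0.73 ± 0.11, adjusted p = 0.000128), while the fall was Cnn1, a smooth muscle protein (-0.39 ± 0.10, adjusted p = 0.00543), which did not pass without the 4 high-Crisp1 controls (-0.34, adjusted p = 0.0908). Of 11 endothelial genes 5 rose and none fell, beside 24.9% and 29.0% of all genes. The count of 5 ranged from 3 to 8 over the alternative settings. The summed RPKM of the list was 67.8 to 83.9 in Dnmt3l-/- against 53.5 to 70.2 in controls.

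Leukocyte genes rested in part on a single library. Of 17 tested, 9 rose and 1 fell (median log2 fold change 0.41), beside 24.9% and 29.0% of all genes. The summed RPKM was 79.2, 136 and 95.8 in Dnmt3l-/- replicates 1, 2 and 3 against 61.1 to 92.6 in controls. Without Dnmt3l-/- replicate 2 the risers numbered 4, and without the 4 high-Crisp1 controls they numbered 2. Cd74, which accompanies MHC class II molecules, was at 4.41, 14.9 and 5.15 RPKM against 2.9 to 5 RPKM, median 3.56 (log2 fold change 1.13 ± 0.31 SE, edgeR adjusted p = 0.00888). Replicate 2 stood far above the others, and without it the value was 0.37 (adjusted p = 0.128), and without the 4 high-Crisp1 controls it was 1.39 (adjusted p = 0.0619). The fall was Cd3e, a T cell receptor subunit, at 0.102, 0.281 and 0.176 RPKM against 0.527 to 1.66 RPKM, median 0.903 (-2.37 ± 0.43, adjusted p = 0.000622). Unlike the list as a whole (median log2 ratio -3.49), Cd3e was higher in germ cells sorted from the Morc1 line than in whole testis (2.03). Its fall therefore cannot be read as a change in T cells. The blood list (5 tested) had a median of 0.09 and the fat list (3 tested) a median of 0.12, with no member past the threshold. Of 6 skeletal muscle genes tested 2 fell, a share close to the 29.0% of all genes. The summed RPKM of the muscle list was 10.4 in Dnmt3l+/- replicate 2 and 2.63 to 3.5 in the other 8 libraries.

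Position of a gene between germ cells and soma was then read from an independent source, the Morc1 line. For each gene the ratio of its mean RPKM in 4 libraries of germ cells sorted at P10.5 from Morc1tg/+ mice to that in the 3 Morc1 control testes was taken, with 0.1 RPKM added to both, and genes were divided into 10 equal groups by this ratio. The sorted cells were prepared with another library kit, from total RNA depleted of ribosomal RNA, while the testes gave polyA RNA. The ratio can therefore also reflect the type of RNA captured. It orders genes and does not measure a cell share. In the lowest group, 71.4% of genes rose and 1.15% fell in Dnmt3l-/- (median log2 fold change 0.425). In the highest group, 4.34% rose and 57.1% fell (median -0.554). The median log2 ratio was -2 for genes that rose, 0.0186 for genes that fell and -0.728 for genes not called.

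**Figure D3:**
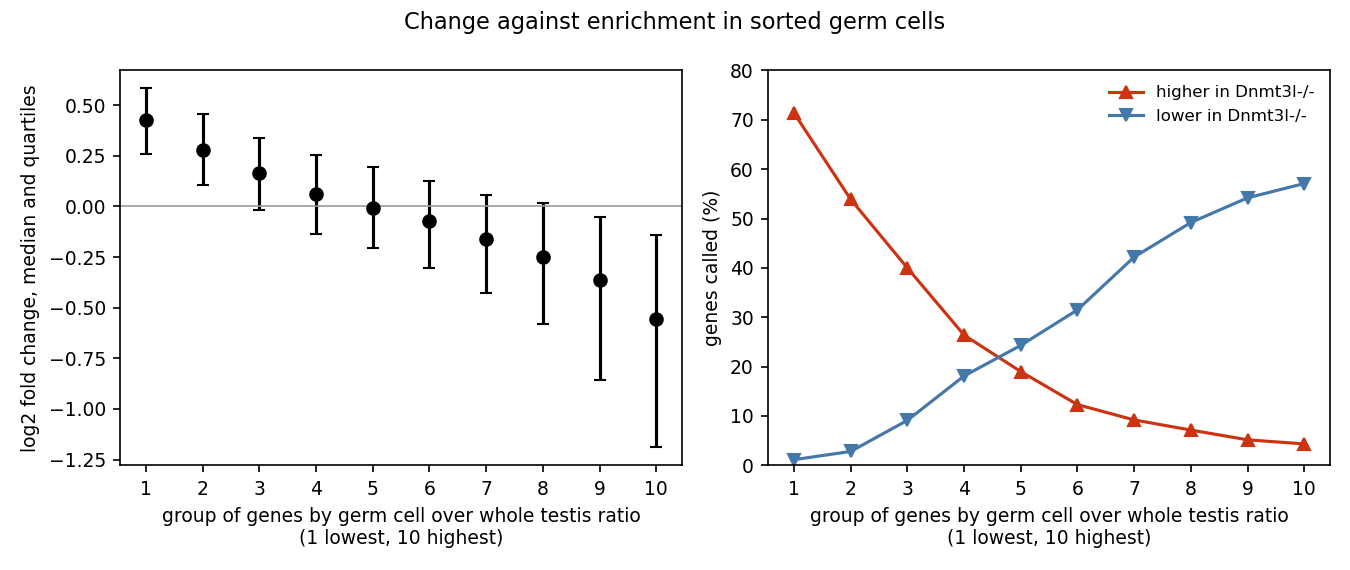
Genes in 10 equal groups by the ratio of RPKM in sorted germ cells to whole testis (Morc1 line, P10.5). Left, median (point) and quartiles (bars) of the log2 fold change in Dnmt3l-/-, which runs from 0.425 in the lowest group to -0.554 in the highest; right, the percentage of genes called higher or lower, which cross between groups 4 and 5.

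Genes enriched in germ cells seldom rose. Of 1129 tested genes at least 2-fold higher in sorted germ cells than in testis, 628 fell, 448 were not called and 53 rose, where 29.0% of all genes tested fell and 24.9% rose. Of the 53 that rose, 23 had a mean of 1 RPKM or more in either arm. Id4 and Gfra1 were among these 23, as was H2afx, the histone variant that marks DNA breaks (47.5, 54 and 54.6 RPKM against 34.9 to 46.2 RPKM, median 38.6, log2 fold change 0.44 ± 0.08 SE, edgeR adjusted p = 0.00055). Slc39a4, an intestinal zinc importer, had the largest rise of the 23 (2.23, 1.8 and 2.42 RPKM against 0.324 to 0.483 RPKM, median 0.43, log2 fold change 2.40 ± 0.16, adjusted p = 4.4e-07). The mutant values of both genes lay above all controls.

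The largest rises started from low control levels. By a rule that took genes past the threshold, with a mean of at least 1 RPKM in either arm and no overlap between groups, the 12 largest rises ranged from 2.11 (Rimbp2) to 6.68 (Clec2g) on the log2 scale. Control means of the 12 ran from 0.012 RPKM (Clec2g) to 1.12 RPKM (Miox), and a rule that admits a gene by its mean in either arm favours such genes. Clec2g, a C-type lectin gene at chr6:128884399-128970537 of NCBIM37, was at 0.956, 1.22 and 1.52 RPKM in Dnmt3l-/- and at 0 to 0.0381 RPKM in controls, with 4 of the 6 controls at 0 (log2 fold change 6.68 ± 0.47 SE, edgeR adjusted p = 6.76e-07). Apoh, which encodes a plasma glycoprotein made by liver, was at 1.21, 2.06 and 1.54 RPKM against 0.0191 to 0.0707 RPKM, median 0.0241 (5.63 ± 0.31, adjusted p = 1.47e-07). Both were close to undetected in every control. Apoh begins inside Prkca, transcribed from the other strand, and Prkca did not pass the test (0.15 ± 0.09, adjusted p = 0.179).

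Tmem40, which encodes a membrane protein, was at 1.52, 1.39 and 1.51 RPKM in Dnmt3l-/- against 0.0361 to 0.169 RPKM in controls, median 0.0815 (log2 fold change 3.99 ± 0.28 SE, edgeR adjusted p = 5.73e-07). BC051019, a gene named after a cDNA clone, was at 1.61, 1.09 and 1.49 RPKM against 0.105 to 0.241 RPKM, median 0.18 (3.04 ± 0.24, adjusted p = 1.44e-06). The 2 genes shared tight mutant values well clear of the controls, and the overlapping gene on the other strand of BC051019, D930014E17Rik, did not pass (0.17 ± 0.08, adjusted p = 0.0878). Serpina12, which encodes the adipokine vaspin, was at 1.47, 1.7 and 1.54 RPKM against 0.15 to 0.391 RPKM, median 0.291 (2.56 ± 0.24, adjusted p = 5.43e-06). Miox, an enzyme of inositol breakdown in kidney, was at 7.22, 5.86 and 4.55 RPKM against 0.766 to 1.49 RPKM, median 1.09 (2.43 ± 0.21, adjusted p = 2.35e-06). The other rises included Fam155a (2.46), a subunit of a sodium leak channel, Spna1 (2.42), the alpha-spectrin of red cells, and Slc39a4 (2.40). Adamts16 (2.25), a secreted metalloproteinase, Gm9855 (2.15) and Rimbp2 (2.11), a presynaptic scaffold, were the rest. The germ cell over testis log2 ratio was -4.06 to -2.15 for Adamts16, Fam155a, Gm9855, Rimbp2 and Miox. It was -0.892 to -0.349 for Spna1, Serpina12 and Tmem40, and 0.133 to 1.425 for Clec2g, Apoh, BC051019 and Slc39a4. Clec2g, Apoh, Tmem40 and Serpina12 had means under 0.1 RPKM in both the sorted germ cells and the Morc1 control testes. Their ratios rest largely on the 0.1 RPKM added to both, and place them neither in germ cells nor in soma. In Morc1tg/+ testis all of the largest rises but Clec2g and Apoh were lower at P14.5 than at P10.5, with the same limit. Morc1 control testes had Adamts16 at 1.19 to 2.14 RPKM (1.56 to 4.85 in Dnmt3l-/-) and Miox at 1.06 to 2.34 RPKM. Why these genes rose was not tested. Beside these, Tmc2, a mechanotransduction channel subunit of hair cells, lay under the 1 RPKM limit at 0.477, 0.496 and 0.774 RPKM against 0 to 0.0391 RPKM, median 0.0278 (4.59 ± 0.35, adjusted p = 1.2e-06). Tmc2 stands in a list of genes near regions with less DNA methylation in Morc1 mutants, chosen on Morc1 samples of this series. Of its 16 tested members 5 rose and 5 fell here (median -0.06), close to the shares over all genes (24.9% and 29.0%).

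**Figure D4:**
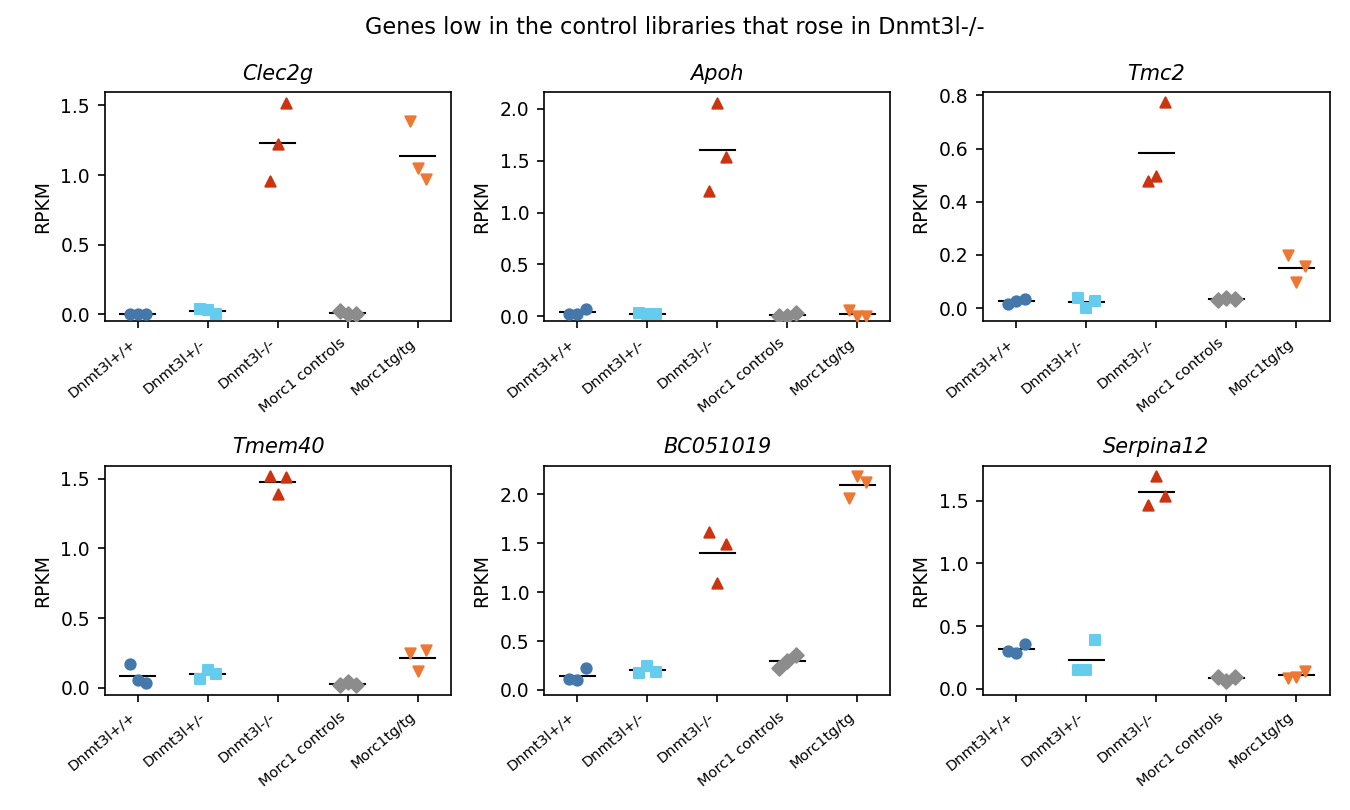
RPKM of 6 genes in each P10.5 testis library used from the Dnmt3l line (3 per genotype) and the Morc1 line (3 controls, 3 Morc1tg/tg), with bars at group means and a separate linear scale per panel. Dnmt3l-/- lies above its controls in every panel; Morc1tg/tg does so for Clec2g, Tmc2, Tmem40 and BC051019, and stays near its controls for Apoh and Serpina12.

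The bases upstream of these genes were read from the NCBIM37 assembly, because the density of CG dinucleotides, the target of DNA methylation, differs between promoters. The 250 bases before the annotated start are shown for 4 genes that rose from near 0 and, as a contrast, for Dazl, a germ cell gene whose promoter is rich in CG. Sequences run 5′ to 3′ on the strand of the gene, and capitals mark each CG. The windows lie at chr6:128884149-128884398 (Clec2g, plus strand), chr11:108204418-108204667 (Apoh, plus strand, inside Prkca), chr7:116867365-116867614 (BC051019, minus strand), chr2:130020680-130020929 (Tmc2, plus strand) and chr17:50432925-50433174 (Dazl, minus strand).
Clec2g: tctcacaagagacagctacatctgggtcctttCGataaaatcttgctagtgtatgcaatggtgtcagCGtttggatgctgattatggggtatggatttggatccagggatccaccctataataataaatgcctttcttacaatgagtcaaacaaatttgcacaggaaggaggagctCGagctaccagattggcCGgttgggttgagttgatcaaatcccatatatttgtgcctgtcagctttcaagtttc
Apoh: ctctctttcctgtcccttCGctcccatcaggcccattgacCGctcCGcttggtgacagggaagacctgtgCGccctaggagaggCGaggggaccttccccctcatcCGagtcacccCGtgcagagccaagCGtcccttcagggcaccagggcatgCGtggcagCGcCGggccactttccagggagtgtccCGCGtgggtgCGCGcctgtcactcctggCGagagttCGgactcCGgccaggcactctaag
BC051019: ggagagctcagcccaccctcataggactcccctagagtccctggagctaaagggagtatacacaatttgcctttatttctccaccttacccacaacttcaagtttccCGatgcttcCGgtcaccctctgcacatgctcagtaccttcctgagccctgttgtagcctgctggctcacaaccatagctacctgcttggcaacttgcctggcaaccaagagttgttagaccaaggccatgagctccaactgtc
Tmc2: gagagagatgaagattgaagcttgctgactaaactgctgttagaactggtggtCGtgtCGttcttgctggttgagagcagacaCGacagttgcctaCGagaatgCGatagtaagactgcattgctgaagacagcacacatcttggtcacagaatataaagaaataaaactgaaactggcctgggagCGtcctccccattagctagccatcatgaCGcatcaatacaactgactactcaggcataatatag
Dazl: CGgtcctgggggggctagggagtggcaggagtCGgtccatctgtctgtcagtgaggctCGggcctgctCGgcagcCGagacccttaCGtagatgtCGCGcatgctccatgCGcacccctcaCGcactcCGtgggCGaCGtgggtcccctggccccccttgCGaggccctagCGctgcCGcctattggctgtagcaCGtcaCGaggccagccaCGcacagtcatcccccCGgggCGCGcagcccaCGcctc
These windows hold 4 CG dinucleotides in Clec2g, 18 in Apoh, 2 in BC051019, 7 in Tmc2 and 23 in Dazl. Over all genes tested the median was 13, and 21.8% of windows held 5 or fewer. Among the 35 genes that rose by more than 2 on the log2 scale the median was 4 and 54.3% held 5 or fewer, and among the 198 that rose by 1 to 2 the median was 5 (51.5%). The much larger set of 3667 genes that rose by up to 1 had a median of 12 (23.5%), so that all 3900 risers together (12, 25.2%) lay close to all genes tested. Among the 273 genes that fell by more than 2 the median was 9 (32.2%), and over all that fell it was 16 (658 of 4538 windows held 5 or fewer). Few CG was also common in the somatic lists, whatever their change. Windows with 5 or fewer made up 38.1% of the Sertoli cell, 50.0% of the stromal, 63.6% of the Leydig cell and 63.6% of the endothelial list. They made up 76.5% of the leukocyte list and 100% of the blood list, of which no member was called. These are counts of letters in a fixed window and measure no methylation. DNA methylation of the Dnmt3l line is not analysed here.

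Germline genes that DNA methylation keeps silent in somatic tissue, by contrast, all fell: 27 of 27 tested members of such a list were lower (median log2 fold change -1.40), with 1 of 27 windows (3.7%) holding 5 or fewer CG. Many of its members also stand in the germ cell and meiosis lists, so the counts are not separate evidence. Dppa3 (Stella), which protects methylation in the early embryo, was at 0.0292, 0.162 and 0.0759 RPKM in Dnmt3l-/- and at 0.951 to 1.83 RPKM in controls, median 1.45 (log2 fold change -3.87 ± 0.41 SE, edgeR adjusted p = 1.38e-05). Zfp42 (REX1), a pluripotency-associated zinc finger gene, was at 0.661, 0.684 and 1.13 RPKM against 1.87 to 2.62 RPKM, median 2.39 (-1.44 ± 0.19, adjusted p = 5.12e-05). All mutant values of both genes lay below the controls.

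The largest falls were of 2 kinds. Spink8, Wfdc15b, Serpina1f and Defb29, which encode a Kazal-type protease inhibitor, a whey acidic domain protein, a serpin and a beta-defensin, varied from library to library among the controls together with Crisp1. Spink8 was at 52.7, 6.39 and 16.54 RPKM in Dnmt3l+/+, at 0.212, 62.8 and 0.0612 RPKM in Dnmt3l+/-, and at 0, 0.0607 and 0 RPKM in Dnmt3l-/-. Crisp1, a secretory protein of the epididymis, was at 34.3, 4.6 and 8.57, then 0.0443, 24.2 and 0.016 RPKM in the same controls, and at 0.0344, 0 and 0 RPKM in Dnmt3l-/-. Both were high in the same 4 controls and low in Dnmt3l+/- replicates 1 and 3. With 2 reads in the 3 Dnmt3l-/- libraries against 3761 in the controls, the depth-scaled ratio for Spink8 was 1100 (95% exact binomial interval 303 to 9050, counting error only), and Wfdc15b, without a read in Dnmt3l-/-, was at least 113-fold lower (floor of 3 counts over the group). Both values moved when single controls were left out, and both stayed large. At the lowest, without Dnmt3l+/- replicate 2, the ratio for Spink8 was 730 and Wfdc15b was at least 56.5-fold lower. At the highest, without Dnmt3l+/- replicate 3, the values were 1360 and at least 140. The calls of Wfdc15b, Serpina1f and Defb29 were lost without single Dnmt3l-/- libraries (edgeR adjusted p = 0.0511 to 0.0679). Their log2 fold changes there stayed large, at -9.68 and -9.66 for Wfdc15b, -7.45 to -8.22 for Serpina1f and -5.03 for Defb29. Without the 4 high-Crisp1 controls, none of these 4 genes, nor Crisp1, had enough reads left to be tested.

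The other 8 of the 12 largest falls varied less among the controls. Foxn4, a forkhead transcription factor, was at 0.0403, 0.0371 and 0.105 RPKM in Dnmt3l-/- and at 0.982 to 1.63 RPKM in controls, median 1.4 (log2 fold change -4.39 ± 0.32 SE, edgeR adjusted p = 8.13e-07). Dlx1, a homeobox gene, was at 0.0943, 0.0978 and 0.148 RPKM against 1.23 to 1.74 RPKM, median 1.48 (-3.64 ± 0.20, adjusted p = 1.35e-07). Prss50, a protease of the testis, was the most abundant of the 8, at 1.24, 1.6 and 3.75 RPKM against 11.1 to 28 RPKM, median 22.9 (-3.21 ± 0.37, adjusted p = 2.18e-05). All mutant values of these 3 genes lay below every control, as the rule that chose them required. Besides Dppa3 and Neurog3, the remaining falls were St8sia5 (-3.63), a sialyltransferase, Gal3st1 (-3.41), which makes the sulfated lipid of spermatocytes, and Plk5 (-3.18), a polo-like kinase.

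Genes that defend the germline against transposons fell broadly. Of 22 piRNA pathway genes tested, 21 fell and none rose (median log2 fold change -1.06), with a summed RPKM of 257 to 313 in Dnmt3l-/- against 576 to 666 in controls. Tdrd9, a helicase of the nuclear piRNA pathway, was at 3.54, 3.86 and 5.5 RPKM in Dnmt3l-/- and at 17 to 21.3 RPKM in controls, median 17.9 (log2 fold change -2.04 ± 0.13 SE, edgeR adjusted p = 2.85e-07). Piwil4 (MIWI2), the nuclear PIWI protein that directs methylation in fetal germ cells, was at 1.34, 1.9 and 2.4 RPKM against 3.58 to 3.96 RPKM, median 3.68 (-0.94 ± 0.14, adjusted p = 0.000142). Groups did not overlap for either gene. Piwil2 (MILI) fell by 1.35 ± 0.09 on the log2 scale (adjusted p = 5.31e-07) and Mov10l1, the helicase that starts piRNA processing, by 1.58 ± 0.09 (adjusted p = 2e-07). Spocd1, which links MIWI2 to the methylation machinery, was the member that did not pass (-0.24 ± 0.16, adjusted p = 0.229), though it did without Dnmt3l-/- replicate 3 (-0.45, adjusted p = 0.0377).

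Within the methylation machinery itself 4 of 15 members rose and 6 fell (median log2 fold change 0.03), not far from the shares over all genes (24.9% and 29.0%). Dnmt3b was at 10.53, 9.78 and 11.8 RPKM in Dnmt3l-/- and at 22.5 to 27.6 RPKM in controls, median 25.4 (log2 fold change -1.18 ± 0.08 SE, edgeR adjusted p = 6.08e-07). Dnmt3a, the partner of DNMT3L in prospermatogonia, was at 23.9, 22.6 and 27.2 RPKM against 23.2 to 26.2 RPKM, median 25.1 (0.03 ± 0.06, adjusted p = 0.741), with full overlap between groups. The maintenance genes Dnmt1 (-0.73 ± 0.07, adjusted p = 9.26e-06) and Uhrf1 (-0.81 ± 0.09, adjusted p = 1.21e-05) fell, as did Hells, a chromatin remodeller (-1.11 ± 0.11, adjusted p = 1.02e-05). Tet1 and Tet2, which oxidize methylcytosine, rose by 0.68 ± 0.08 (adjusted p = 3.94e-05) and 0.60 ± 0.09 (adjusted p = 0.00016). Of 25 chromatin and transposon repression genes, 17 fell and 1 rose (median -0.38). Morc1, the germline ATPase mutated in the comparison line, was at 6.28, 6.41 and 7.04 RPKM against 11.2 to 15.7 RPKM, median 12.3 (-0.89 ± 0.11, adjusted p = 3.21e-05).

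Of 43 imprinted genes tested, 20 were higher and 8 lower (median log2 fold change 0.15), beside 24.9% and 29.0% of all genes. At the Dlk1-Dio3 cluster, whose control region is methylated on the paternal copy, Meg3, a maternally expressed noncoding RNA, was at 9.86, 8.45 and 9.12 RPKM in Dnmt3l-/- and at 4.1 to 5.51 RPKM in controls, median 4.4 (log2 fold change 1.05 ± 0.09 SE, edgeR adjusted p = 2.93e-06). The paternally expressed Dlk1, at 111, 123 and 82.5 RPKM against 52.1 to 77.8 RPKM, median 61.2, rose too (0.78 ± 0.15, adjusted p = 0.00088), as did Rtl1 (1.13 ± 0.20, adjusted p = 0.000611). Mutants and controls did not overlap for these genes. The germ cell over testis log2 ratio was -3.96 for Meg3, -4.11 for Dlk1 and 0.094 for Rtl1, and genes with low ratios mostly rose. Dio3, a thyroid hormone deiodinase gene of the same cluster, fell, at 0.239, 0.209 and 0.248 RPKM against 0.476 to 0.645 RPKM, median 0.541 (-1.19 ± 0.19, adjusted p = 0.000268), also without overlap. H19, another maternally expressed RNA with a paternally methylated control region, was at 101, 112 and 81.2 RPKM against 74.7 to 117 RPKM, median 93.7, and did not pass (0.11 ± 0.14, adjusted p = 0.563). Igf2, of the same cluster as H19, rose without overlap in the main fit (0.52 ± 0.09, adjusted p = 0.000641). Rasgrf1, whose control region is likewise methylated on the paternal copy, fell from a low level (0.104, 0.128 and 0.13 RPKM against 0.167 to 0.339, -1.06 ± 0.26, adjusted p = 0.00439), a call lost without the 4 high-Crisp1 controls (-0.83, adjusted p = 0.0504). Zdbf2, of a further such region, did not pass (-0.11 ± 0.10, adjusted p = 0.372). The placental regulators Ascl2 (-2.42 ± 0.22, adjusted p = 3.46e-06) and Phlda2 (-1.61 ± 0.20, adjusted p = 3.55e-05) fell furthest among the fallers on the list, with 0.647, 0.805 and 1.42 RPKM of Ascl2 in Dnmt3l-/- against 4.24 to 6.33. Allele of origin was not measured.

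Retinoic acid genes, which time the entry into meiosis, moved in both directions. Of 18 tested, 5 rose and 9 fell (median log2 fold change -0.23), beside 24.9% and 29.0% of all genes. Rarg, the receptor of spermatogonia, was at 4.2, 4.01 and 5.5 RPKM in Dnmt3l-/- and at 10.2 to 11.8 RPKM in controls, median 10.7 (log2 fold change -1.21 ± 0.10 SE, edgeR adjusted p = 1.46e-06). Rara, the receptor found in Sertoli cells, was at 50.7, 51 and 45.7 RPKM against 30.5 to 36.3 RPKM, median 34.6 (0.57 ± 0.07, adjusted p = 2.52e-05). The receptors thus separated the groups in opposite directions. Aldh1a1, which makes retinoic acid in Sertoli cells, rose by 0.52 ± 0.06 (adjusted p = 2.74e-05), and Rbp4, the retinol carrier, fell by 2.14 ± 0.17 (adjusted p = 1.35e-06).

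Cell cycle genes were lower in 21 of 24 cases and higher in 1 (median log2 fold change -0.55). Ccne1, the cyclin of entry into S phase, was at 2.83, 4 and 4.17 RPKM in Dnmt3l-/- and at 7.09 to 9.76 RPKM in controls, median 7.58 (log2 fold change -1.10 ± 0.14 SE, edgeR adjusted p = 4e-05), and Mki67, the Ki-67 proliferation antigen, fell by 0.40 ± 0.09 (adjusted p = 0.00322). The riser was Cdk1, the mitotic kinase (0.46 ± 0.12, adjusted p = 0.00681), whose value without Dnmt3l-/- replicate 2 was 0.34 (adjusted p = 0.0541). Of 34 genes of p53, DNA damage and apoptosis, 5 rose and 14 fell (median -0.20), beside 24.9% and 29.0% of all genes. Atm, the kinase that signals DNA breaks, was at 5.01, 4.96 and 6.42 RPKM against 9.13 to 14.6 RPKM, median 10.8, below every control (-0.97 ± 0.14, adjusted p = 9.39e-05). Cdkn1a, the p53 target p21, fell by 0.42 ± 0.12 (adjusted p = 0.0112), a call that was lost with Dnmt3l+/- controls only (-0.35, adjusted p = 0.109), without Dnmt3l-/- replicate 1 (-0.38, adjusted p = 0.0508) and without the 4 high-Crisp1 controls (-0.23, adjusted p = 0.322).

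Of 33 interferon and nucleic acid sensing genes tested, 7 were higher and 4 lower (median log2 fold change 0.10), beside 24.9% and 29.0% of all genes, and the other 22 did not pass. Oasl1 was the member that fell furthest, at 0.134, 0.257 and 0.203 RPKM in Dnmt3l-/- and at 0.51 to 0.692 RPKM in controls, median 0.63 (-1.57 ± 0.22 SE, edgeR adjusted p = 0.000107). Ifit3, an interferon-induced gene, had the largest rise (0.68 ± 0.23, adjusted p = 0.0254), which did not pass with DESeq2 (0.70, adjusted p = 0.0507), with Dnmt3l+/- controls only (0.61, adjusted p = 0.125), without Dnmt3l-/- replicate 2 (0.47, adjusted p = 0.163) or without the 4 high-Crisp1 controls (0.56, adjusted p = 0.238). In the X-linked Rhox homeobox cluster 24 genes were listed and 6 could be tested, and since the cluster holds near-identical copies its values are uncertain. Rhox8, a Sertoli cell member, rose (204, 223 and 192 RPKM against 110 to 139, 0.75 ± 0.08, adjusted p = 8.26e-06) and the other 5 fell, among them Rhox10, a germ cell member (-0.90 ± 0.14, adjusted p = 0.000218). Over the whole X chromosome, 35.4% of 625 tested genes rose and 25.8% fell (median 0.13), against 24.9% and 29.0% over all genes tested (median -0.000919).

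The control arm held both genotypes, and few genes passed between them. Between Dnmt3l+/- and Dnmt3l+/+ 1 gene of 15665 (0.00638%) passed an adjusted p of 0.05 in edgeR, and 302 had an unadjusted p under 0.05. That gene was Gm9855, at 0, 0.0235 and 0.0225 RPKM in Dnmt3l+/+, 0.83, 0.58 and 1.07 RPKM in Dnmt3l+/-, and 1.87, 2.02 and 1.69 RPKM in Dnmt3l-/-. Its level was stepwise in the number of mutant alleles, with no overlap between the 3 genotypes. It lies 35.7 Mb from Dnmt3l on the same chromosome, and the 6 Morc1 line testes used here had it at 1.6 to 2.42 RPKM. Linkage of a variant at Gm9855 to the Dnmt3l allele and an effect of Dnmt3l dose cannot be told apart here. The call of its rise in Dnmt3l-/- (2.15 ± 0.72 SE, edgeR adjusted p = 0.0241) was lost with DESeq2 (2.20, adjusted p = 0.177), without Dnmt3l-/- replicate 1 (2.14, adjusted p = 0.0617) and without Dnmt3l-/- replicate 2 (2.10, adjusted p = 0.0672). Over all settings the log2 fold change of Gm9855 ran from 0.996 to 6.8, so the value against pooled controls depends on which controls are used. Among 196 tested genes within 5 Mb of Dnmt3l, 49 rose and 68 fell (59.7% called), against 53.9% called over all genes.

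Finally the effect of Dnmt3l loss was set against that of Morc1 loss, in 1 fit of both lines that tested the difference of the 2 effects. In this fit 1083 of 15902 genes (6.81%) passed for Morc1tg/tg against its controls, 257 higher (1.62%) and 826 lower (5.19%), and the difference of effects passed for 2797 genes (17.6%), 1502 of them further down (9.45%) and 1295 further up (8.14%) in the Dnmt3l line. Calls and log2 fold changes for Dnmt3l loss are those of the separate fit of its 9 libraries. The printed effects of the lines therefore need not subtract exactly to the difference. Of 15620 genes tested in both, 1003 were called in both lines, 802 lower and 198 higher in each and 3 in opposite directions. They made up 93.5% of the genes called for Morc1 and 11.9% of those called for Dnmt3l, where 53.9% of the genes tested in both were called for Dnmt3l and 6.87% for Morc1. The line and the gene cannot be told apart in this comparison. The count for the difference was 1755 without Morc1+/+ replicate 1, the single wild-type library used from that line, and 1276 with heterozygous controls only.

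Most early meiosis genes fell in both lines, while the difference of effects passed for most piRNA pathway genes. Prdm9 fell by 1.82 in Dnmt3l-/- and by 1.67 in Morc1tg/tg (1.32, 1.22 and 1.42 RPKM against 3.96 to 4.56), and the difference was -0.10 ± 0.35 (SE, edgeR adjusted p = 0.875). Dmc1 likewise differed by 0.17 ± 0.25 (adjusted p = 0.68). Over the early meiosis list 31 of 32 fell in Dnmt3l-/- and 28 in Morc1tg/tg, and the difference passed for 10, all further down in Dnmt3l-/-. Over all genes tested the difference passed for 17.6%, with 9.45% further down and 8.14% further up. Zbtb16, at 19, 17.8 and 15.7 RPKM in Morc1tg/tg against 14.8 to 18.9 RPKM in its controls, gave 0.09 there (adjusted p = 0.677), with a difference of -1.23 ± 0.15 (adjusted p = 6.89e-05). Sox3 differed by -1.98 ± 0.16 (adjusted p = 1.57e-06), Neurog3 by -2.98 ± 0.38 (adjusted p = 7.46e-05) and Id4 by 0.99 ± 0.14 (adjusted p = 0.000243). In the undifferentiated list no member was called for Morc1 and the difference passed for 13 of 22, 10 further down and 3 further up, and in the piRNA list it passed for 19 of 22, all further down in Dnmt3l-/-. Of 21 Sertoli cell genes, 1 rose in Morc1tg/tg and the difference passed for 11, all further up in Dnmt3l-/-, with Gdnf at 0.73 ± 0.14 (adjusted p = 0.00209).

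Of the 12 largest rises some were also called in the Morc1 line. Clec2g was at 1.39, 1.05 and 0.975 RPKM in Morc1tg/tg and at 0.0251, 0 and 0 RPKM in the Morc1 controls, and the effects differed by -0.11 ± 1.10 (SE, edgeR adjusted p = 0.957). BC051019 was at 1.96, 2.19 and 2.13 RPKM against 0.221, 0.297 and 0.359 RPKM, with a difference of 0.23 ± 0.34 (adjusted p = 0.674). Tmem40 rose less in the Morc1 line, to 0.25, 0.124 and 0.269 RPKM from 0.02, 0.0396 and 0.0227 RPKM, but the difference was not past the threshold (1.14 ± 0.88, adjusted p = 0.409). These were the 3 of the 12 rises called the same way in Morc1tg/tg, beside 1.62% of all genes tested. For 7 of the 12 the difference passed, as in Slc39a4 (2.37 ± 0.25, adjusted p = 1.33e-05) and Miox (2.35 ± 0.37, adjusted p = 0.000513). With heterozygous controls only it was lost for 4 of the 7, Serpina12, Spna1, Adamts16 and Rimbp2 (adjusted p = 0.0599 to 0.089). Over all genes tested the difference passed further up for 8.14%. The 12 were chosen by their Dnmt3l effect, which enters the difference, so the choice itself favours passing and the count of 7 is no separate evidence. The remaining 2, Apoh and Gm9855, were neither called in Morc1tg/tg nor past the threshold for the difference. Apoh was at 0.0594, 0 and 0 RPKM in Morc1tg/tg, with a difference of 4.96 ± 2.34 (adjusted p = 0.151), and the difference for Gm9855 was 2.25 ± 0.88 (adjusted p = 0.0849). Tmc2 rose in both, with a difference of 2.46 ± 0.71 (adjusted p = 0.0241) that did not pass with heterozygous controls only (adjusted p = 0.112) or without Morc1+/+ replicate 1 (0.0563), Morc1tg/+ replicate 2 (0.077) or Morc1tg/+ replicate 3 (0.0586). Cdkl4, a kinase gene of the same Morc1 list, was at 0.384, 0.393 and 0.229 RPKM in Morc1tg/tg against 0.0632, 0.094 and 0.0958 RPKM, and at 0.0663, 0.0917 and 0.208 RPKM in Dnmt3l-/- against 0.054 to 0.197 RPKM, median 0.132. It passed the test in the Morc1 line and not in Dnmt3l-/-, with a difference of -1.91 ± 0.61 (adjusted p = 0.0399) whose call was lost in 12 settings, 10 of them without a single library (adjusted p over the 12 from 0.0599 to 0.278).

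**Figure D5:**
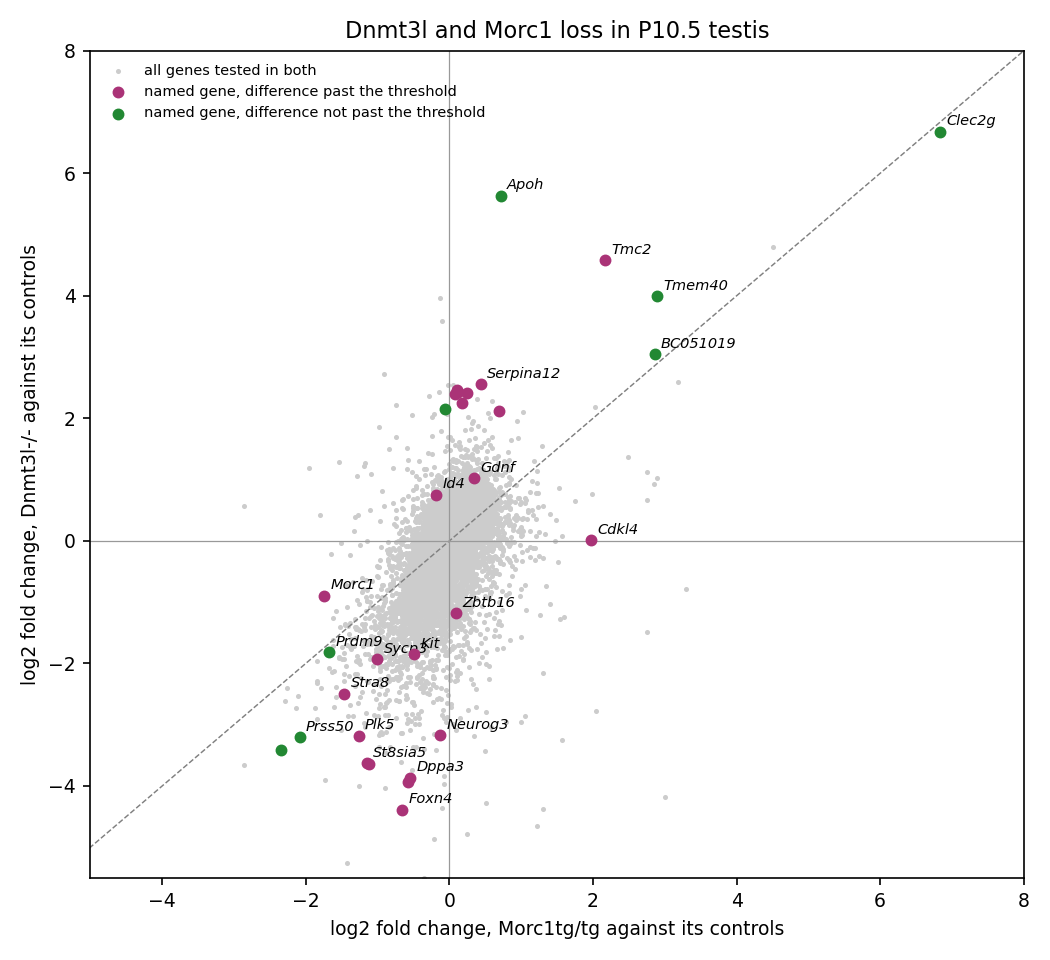
Log2 fold change of each gene tested in both lines, Morc1tg/tg against its controls (horizontal) and Dnmt3l-/- against its controls (vertical), with the line of equal effects dashed and genes beyond the axes left out. Clec2g and BC051019 lie near the dashed line, Neurog3, Zbtb16 and Foxn4 lie far below it, at -0.13, 0.09 and -0.66 on the Morc1 axis, and purple points mark named genes whose difference passed the test.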

How the data were processed

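Whole testes of P10.5 mice were sequenced by the authors as polyA RNA with the TruSeq v2 kit, which does not mark strand. Per the methods, reads were cut to 50 bases, ribosomal reads were dropped, and the rest were mapped to the gene and repeat annotations of mm9 (NCBIM37) with up to 2 mismatches, keeping unique matches. Reads without such a match were mapped to the genome, and genes were counted with HTSeq at default settings. The submitters' processing notes name Bowtie as the aligner. The deposited tables give raw read counts and RPKM values per gene, the latter computed by the authors per gene length and read depth. Counts were tested here in R 4.3.3 with edgeR 4.0.16 (filterByExpr, TMM factors, quasi-likelihood F test, Benjamini-Hochberg over all genes tested, threshold 0.05). The SE of a log2 fold change is its size divided by the square root of F. RPKM was used for levels. Genes on opposite strands that overlap, and near-identical copies, have uncertain counts.

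Groups were taken from the genotype labels. Dnmt3l-/- was compared with Dnmt3l+/+ and Dnmt3l+/- together, Dnmt3l+/- with Dnmt3l+/+ in a fit of 3 groups, and the effects of Dnmt3l and Morc1 loss in 1 fit of both lines, in which depth was 25144796 to 38113208 reads on genes per Morc1 line library. Members, gene lists and tests were chosen with earlier results of these data known, and lists are therefore described by counts and medians only. Named genes were Dnmt3l, the 12 largest rises and falls past the threshold with a mean of at least 1 RPKM in either arm and no overlap between arms, and members of the lists. The scripts were tested on simulated data. CG dinucleotides were counted in the 250 bases before each gene's start in the files' coordinates, found for 15661 of 15665 genes. Alternatives were DESeq2 1.42.0, other scaling factors and filters, either control genotype alone, replicate number as a block, each library left out, and, chosen after seeing the data, the 4 control libraries with high Crisp1 left out together. Replicate numbers did not pair the samples: same-numbered libraries of different genotype had correlated deviations in 1 of 9 pairs (r over 0.1, range -0.459 to 0.248). Differently numbered libraries of different genotype had them in 7 of 18 pairs (range -0.355 to 0.445). Litter is not given, so pairing by anything other than replicate number was not tested. Counting intervals cover counting error only. Repeats and DNA methylation were not analysed here, and 1 gene is not reported here.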

Additional observations from a re-analysis of the deposited data

Results flagged for a closer look

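Among the 6 controls, 1 library lay far from the rest for 6 of 110 genes checked: Apoh in Dnmt3l+/+ replicate 3 (0.0707 RPKM), Serpina1f in Dnmt3l+/- replicate 2 (7.15 RPKM), Defb29 in Dnmt3l+/+ replicate 1 (9.07 RPKM), Morc1 in Dnmt3l+/- replicate 3 (15.7 RPKM) and Meg3 in the same library (5.51 RPKM) as the highest, and Dhh in Dnmt3l+/- replicate 1 (74.3 RPKM) as the lowest. Chance gives about 5 such cases in 100. The Serpina1f and Defb29 libraries were 2 of the 4 controls with high Crisp1.

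For 65 of the 110 genes checked the effect of Dnmt3l loss differed from that of Morc1 loss by the test of the difference in edgeR (adjusted p under 0.05). Over all 15902 genes tested 2797 (17.6%) passed, and the 110 were not chosen at random. For 16 of the 65 the call was lost under at least 1 alternative, for 15 of them with heterozygous controls only, and the values that follow are Dnmt3l effect minus Morc1 effect on the log2 scale. Among the largest rises the difference was 2.16 for Serpina12, 2.41 for Fam155a, 2.35 for Miox, 2.22 for Spna1, 2.37 for Slc39a4, 2.12 for Adamts16 and 1.46 for Rimbp2, and for Tmc2 it was 2.46. With heterozygous controls only Serpina12, Spna1, Adamts16, Rimbp2 and Tmc2 did not pass (adjusted p = 0.0599 to 0.112). Without Morc1+/+ replicate 1 neither Spna1 (0.0616) nor Tmc2 (0.0563) passed. Among the largest falls it was -3.68 for Foxn4, -3.27 for Dppa3, -2.46 for Dlx1, -2.43 for St8sia5, -1.87 for Plk5 and -2.98 for Neurog3. The targeted gene of each line differed as well, at -3.30 for Dnmt3l and 0.90 for Morc1. The value for Morc1 did not pass with heterozygous controls only (0.53, adjusted p = 0.0664).

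The following germ cell genes are those checked singly whose difference passed. Over whole lists it passed further down in Dnmt3l-/- for 11 of 12 general, 10 of 22 undifferentiated, 8 of 10 differentiating and 10 of 32 early meiosis genes tested. Over all genes tested it did so for 9.45%. General markers gave -0.60 for Ddx4, -0.82 for Dazl, -1.33 for Crabp1, -0.99 for Tdrd1 and -0.85 for Mael. Spermatogonial genes gave 0.52 for Gfra1, 0.99 for Id4, -1.23 for Zbtb16, -1.11 for Lin28a, -1.45 for Sall4, -1.98 for Sox3, -1.31 for Kit, -0.98 for Stra8, -1.21 for Sohlh1, -1.47 for Dmrtb1 and 0.66 for Ccnd2, and the call of Gfra1 was lost in 7 settings, 5 of them without a single library (adjusted p = 0.0534 to 0.105). Meiotic and piRNA genes gave -0.87 for Sycp3, -0.83 for Sycp1, 0.76 for Mybl1, -1.04 for Piwil1, -1.07 for Piwil2, -1.0 for Piwil4, -1.14 for Mov10l1 and -1.54 for Tdrd9.

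In the methylation and chromatin lists the difference was -0.81 for Dnmt3b, -0.52 for Hells, 0.54 for Tet1, 0.48 for Tet2 and -0.54 for Ehmt2. The calls of Tet2 (12 settings, adjusted p = 0.0549 to 0.128), Hells (6 settings, 0.053 to 0.0764) and Tet1 (2 settings, 0.0601 and 0.0738) were lost under alternatives. Among somatic lists the difference passed for 11 of 21 Sertoli cell, 2 of 11 Leydig cell, 1 of 11 endothelial, 0 of 12 stromal and 0 of 17 leukocyte genes. Over all genes tested it passed for 17.6%. Somatic genes checked singly gave 0.91 for Amh, 0.73 for Gdnf, 0.70 for Dhh, 0.77 for Inha, 0.75 for Rhox8 and 1.40 for Hsd17b3. Imprinted genes gave 1.01 for Meg3, 1.26 for Rtl1, -2.10 for Ascl2 and -1.36 for Phlda2, the last without a call when Morc1tg/tg replicate 2 was left out (adjusted p = 0.0729). The remaining values were -1.91 for Cdkl4, -1.20 for Oasl1, 0.61 for H2afx, 0.73 for Cdk1, -0.71 for Rarg, -1.41 for Rbp4, 0.55 for Rara, 0.31 for Aldh1a1, -0.87 for Rhox10 and -0.99 for Zfp42. Among these the calls of Cdkl4 (12 settings, adjusted p = 0.0599 to 0.278), Aldh1a1 (3 settings, 0.0547 to 0.0752) and Cdk1 (2 settings, 0.0501 and 0.052) were lost under alternatives that include leaving out single libraries. With heterozygous controls only Phlda2 (adjusted p = 0.0833), Oasl1 (0.0796) and Zfp42 (0.0772) did not pass either.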

How the results depend on the processing

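None of the 8439 calls in Dnmt3l-/- changed direction under any alternative run. Leaving out each library in turn gave 6964 to 8745 calls, 3107 to 4305 of them higher and 3842 to 4639 lower. Leaving out together the 4 control libraries with high Crisp1, an alternative chosen after seeing the data, left 2 controls and gave 5348 calls, 2292 of them higher, of which 5143 were among the 8439. With replicate number as a block there were 7981 calls, and numbers did not pair the samples. Upper-quartile factors raised the share of higher calls from 46.2% to 54.4% and shifted the median of all genes to 0.0595. Dnmt3l+/- against Dnmt3l+/+ gave 2 calls with DESeq2 (Spp1 and Gm9855), 0 with the replicate block and 0 to 1 without single libraries. The difference between the Dnmt3l and Morc1 effects passed for 1276 genes with heterozygous controls only, for 1689 with the replicate block within each line, and for 1753 to 4021 without single libraries (lowest without Morc1tg/tg replicate 1, highest without Dnmt3l-/- replicate 3, 1755 without Morc1+/+ replicate 1 and 1817 without Dnmt3l-/- replicate 2). The cause was not tested. Of 110 single genes checked, none reversed, a call was lost in 25 of the combinations of gene and setting and gained in 16. Of 65 genes called for the difference, none reversed and a call was lost in 58 combinations, 12 of them each for Cdkl4 and Tet2, 7 for Gfra1, 6 for Hells and 4 for Tmc2. For 50 counts of list members called higher or lower, 85 combinations of count and setting moved and 865 stayed close to the main count. Some germ cell lists moved little: 9 differentiating, 12 pan-germ and 27 methylation-dependent germline genes fell under every alternative except the last list without the high-Crisp1 controls (26). Genes near the floor of detection, such as Clec2g and Apoh in controls, have log2 fold changes that depend on few reads.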

Other observations

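Genes of the older testis gave a second ordering. In Morc1tg/+ mice, log2 of the mean RPKM at P14.5 (3 libraries) over that at P10.5 (2 libraries), with 0.1 RPKM added, had a median of -0.319 among genes that rose in Dnmt3l-/-, 0.182 among genes that fell and 0.000223 over all genes tested.

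After its values were seen, G530011O06Rik, an X-linked gene model at chrX:166412975-166416849 of NCBIM37, was singled out among the genes enriched in sorted germ cells that rose. It was at 3.20, 3.35 and 4.00 RPKM in Dnmt3l-/- and at 0.559 to 1.28 RPKM in controls, median 0.87 (log2 fold change 2.06 ± 0.19 SE, edgeR adjusted p = 4.73e-06), with no overlap between groups. Its difference from the Morc1 effect was 2.15 ± 0.33 (edgeR adjusted p = 0.000373). Dlx3, a homeobox gene of the same set, was at 1.74, 1.69 and 2.24 RPKM against 1.01 to 1.16 RPKM, median 1.06 (0.86 ± 0.12, edgeR adjusted p = 9.86e-05), whereas Dlx1 was among the largest falls.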
